A study of Rattus norvegicus with 3 samples.

Results

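A set of 9 genes that start, restrain or answer blood clotting, or that turn plasminogen into plasmin, was chosen by symbol: F3, F5, F2R, THBD, TFPI, PLAT, PLAU, PLAUR and SERPINE2. Of these 9 genes, 7 are among the 12758 symbols in the table of group values, and F5 and F2R are not in it under their symbol or any synonym in the RefSeq reference. Female Sprague Dawley rats, 3 months old, received either a laminectomy at T9 without contusion (No-SCI) or a laminectomy with a contusion (SCI), so the surgery was common to both groups. At 24 h the cord tissue directly above the contusion level was excised and digested with a cold active protease, cells were pelleted, and total RNA of the supernatant was sequenced after removal of ribosomal RNA. The labels give 2 No-SCI libraries and 1 SCI library, the study's methods give 2 animals per condition, and the table holds 1 value per group in FPKM, a unit that divides the fragments of a transcript by its length and by the sequencing depth. The group values therefore hold no spread between animals to set against any difference below, and no test was run on them. The authors' own p and q values were not used.

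Clotting begins when blood meets tissue factor, the product of F3, which binds factor VII and leads through factor X and its cofactor, factor V (F5), to thrombin and fibrin. Tissue factor pathway inhibitor (TFPI) blocks this first step, thrombomodulin (THBD) diverts thrombin towards activation of the anticoagulant protein C, and the receptor encoded by F2R carries the signal of thrombin into cells. Fibrin is dissolved by plasmin, which tissue-type (PLAT) and urokinase-type (PLAU) plasminogen activators release from plasminogen. PLAUR holds urokinase at the cell surface, and SERPINE2 (protease nexin-1) inhibits thrombin and both activators. In the nervous system tissue factor is known from astrocytes and vessel walls, tissue-type activator from neurons and endothelium, and SERPINE2 from glia.

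Of the 7 members in the table, 3 (F3, THBD and PLAUR) were at least 2-fold higher in SCI than in No-SCI, and 0 were at least 2-fold lower. That is 42.9% of the 7, whereas 7.93% of all 12758 symbols were at least 2-fold higher and 12.1% at least 2-fold lower, 20.0% in either direction. At 1.5-fold, 4 members were higher and 1 lower, beside 16.9% and 26.3% of all symbols (43.2% together), and at 3-fold 0 members were higher or lower, beside 3.17% and 3.27% (6.44% together). As a log2 ratio (SCI over No-SCI), the median was 0.70 over the 7 members and −0.12 over all symbols. The remaining 4 members, TFPI, SERPINE2, PLAT and PLAU, lay within 2-fold. F3 at 2.09-fold was the member closest to the limit from above, and PLAU, 1.76-fold lower, the closest from below. Because the RNA is from a bulk supernatant left after cells were pelleted, a different number of cells and a different amount of RNA per cell cannot be told apart.

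**Figure D1:**
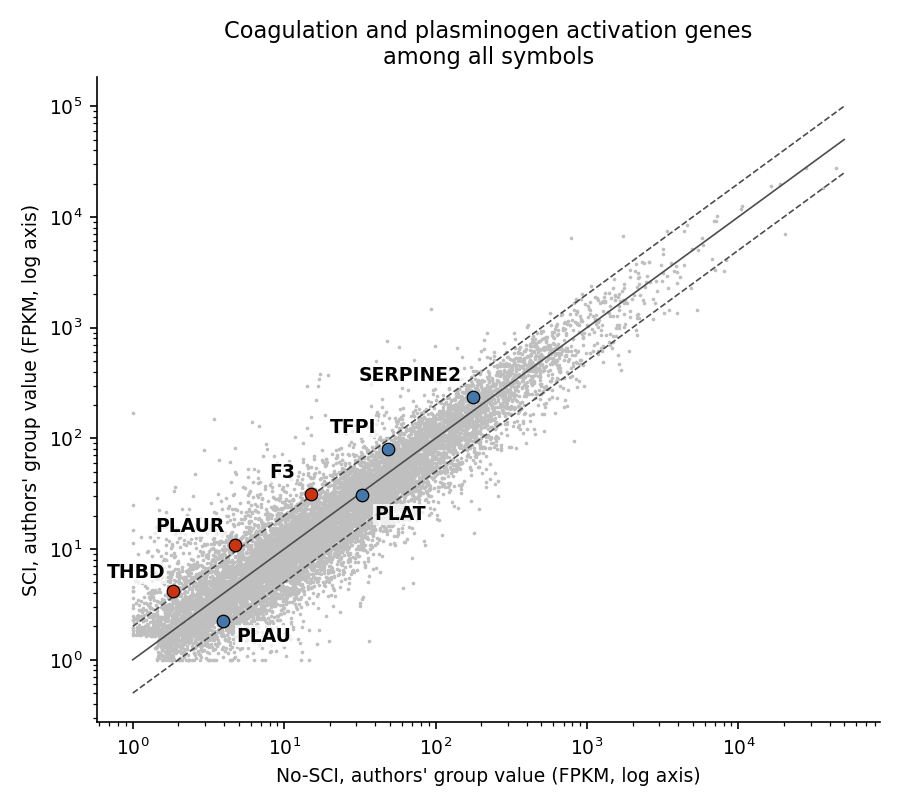
Each grey point is 1 symbol, with its No-SCI value on the horizontal and its SCI value on the vertical axis (FPKM, both log axes), and the solid line marks equal values and the dashed lines 2-fold differences. F3, THBD and PLAUR (red) lie on or above the upper dashed line, and TFPI, SERPINE2, PLAT and PLAU (blue) lie between the lines.

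The initiator of clotting was higher after injury, and its inhibitor was the more abundant transcript of the pair in both groups. F3 had a group value of 14.9 FPKM in No-SCI and 31.2 FPKM in SCI, a log2 ratio of 1.06. It moved from percentile 46.6 of all symbols to percentile 65.9. Among the 4085 symbols within 2-fold of its mean level, 7.83% were at least 2-fold higher in SCI. TFPI, a Kunitz-type inhibitor of factor Xa and of the complex of tissue factor with factor VIIa, had 48.8 FPKM in No-SCI and 79.4 FPKM in SCI. Its log2 ratio of 0.70, or 1.63-fold, stayed inside the 2-fold limit. The level of TFPI was 3.27 times that of F3 in No-SCI and 2.54 times in SCI.

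Most of the other coagulation factors have no entry in the table. Of 18 factors and cofactors, 4 were in the table, namely F3, F13A1, KNG1 and VWF. Prothrombin (F2), factors VII to XII and the 3 fibrinogen chains (FGA, FGB and FGG), which are mostly liver products, were among the 14 without an entry. F13A1, the subunit of factor XIII that cross-links fibrin and is also a marker of macrophages, was 3.24 FPKM in No-SCI and 6.74 FPKM in SCI, a log2 ratio of 1.06 that was 0.87 with a pseudocount of 1. KNG1, the kininogen gene, has the table's lowest entry, 1, in No-SCI and 1.93 FPKM in SCI, and a fold is therefore not given. VWF, which tethers platelets to the vessel wall, was 1.67 and 1.44 FPKM. Of the 6 genes for maturation and secretion of clotting factors, all were in the table and 0 passed 2-fold, beside 20.0% of all symbols. The largest ratio there was that of GGCX, the vitamin K-dependent carboxylase, which went from 3.59 to 6.71 FPKM (log2 ratio 0.90). It passed 2-fold with 1 subtracted from every value (1.14), with median centring (1.02) and with equal upper quartiles (1.005).

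Among the anticoagulant proteins THBD had the largest ratio and the lowest level. THBD had 1.86 FPKM in No-SCI, at percentile 4.61 of all symbols, and 4.18 FPKM in SCI, at percentile 19.0. The log2 ratio was 1.17, or 2.25-fold. Its values sit close to the bottom of the table, where the ratio depends on whether the lowest value of 1 is a floor or a constant that was added, which the sources used here do not give: with a pseudocount of 1 it was 0.86, below the limit, and with 1 subtracted from every value it was 1.89. Of the 3034 symbols within 2-fold of its mean level, 9.39% were at least 2-fold higher in SCI. PROCR, the endothelial receptor that presents protein C to thrombin bound to THBD, went from 12.03 to 17.2 FPKM (log2 ratio 0.52), and PROS1, the gene of protein S, the cofactor of activated protein C, from 23.2 to 17.3 FPKM (log2 ratio −0.42). Protein C itself (PROC) and antithrombin (SERPINC1) have no entry. Of the 8 anticoagulant genes in the table out of 14, THBD was the 1 past 2-fold. That is 12.5%, against 20.0% of all symbols in either direction and 7.93% higher. The median log2 ratio of the 8 was 0.53. TFPI2, a homologue of TFPI, was 28.1 and 33.8 FPKM, ANXA5, whose protein covers the phosphatidylserine on which clotting factors assemble, was 149 and 218 FPKM, and GAS6, a relative of protein S, was 11.9 and 21.7 FPKM.

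SERPINE2 was the most abundant member. Its group value was 177 FPKM in No-SCI and 235 FPKM in SCI, at percentiles 90.8 and 93.0 of all symbols. The log2 ratio was 0.40, or 1.32-fold. In No-SCI it exceeded TFPI 3.63-fold and PLAT 5.43-fold, and in SCI 2.95-fold and 7.58-fold. The order of the members in No-SCI was SERPINE2, TFPI, PLAT, F3, PLAUR, PLAU and THBD. In SCI F3 and PLAT exchanged places at 31.2 and 30.9 FPKM, and so did THBD and PLAU at 4.18 and 2.25 FPKM. Whether neighbours in this order differ beyond the spread between animals cannot be said.

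Of the 4 protease-activated receptors, to which the main thrombin receptor F2R belongs, F2RL2 alone was in the table, with 2.53 FPKM in No-SCI and 2.63 FPKM in SCI (log2 ratio 0.05). F2R, F2RL1 and F2RL3 have no entry. The table does not say whether a gene without an entry was unexpressed or was left out by a filter. In all symbols of the table the higher of both group values was at least 1.41 FPKM, and all 7 members were above this value in both groups.

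The urokinase receptor was higher after injury, while urokinase itself lay within 2-fold on the lower side. PLAUR, the anchored receptor that focuses urokinase on the cell surface, had 4.70 FPKM in No-SCI and 10.98 FPKM in SCI, the largest ratio of the members (log2 ratio 1.22, 2.34-fold). It moved from percentile 19.9 to 41.3. Of the 4177 symbols within 2-fold of its mean level, 10.1% were at least 2-fold higher in SCI. PLAU had 3.97 FPKM in No-SCI and 2.25 FPKM in SCI, a log2 ratio of −0.82. This lay within 2-fold as deposited and was −1.24, past the limit, with 1 subtracted from every value, as would apply if a constant of 1 had been added. There were 1.19 PLAUR for each PLAU by FPKM as deposited in No-SCI and 4.88 in SCI. These quotients were not recomputed under the alternatives, and that of SCI rests on a low PLAU value.

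The sequences before the annotated starts of PLAUR and PLAU are shown because this receptor and its ligand had the highest and the lowest ratio of the 7. RefSeq promoter windows (build GRCr8) were matched for 6 of the 9 members, namely F5, F2R, TFPI, PLAU, PLAUR and SERPINE2. F3, THBD and PLAT had no entry. The 250 bases before each start are printed 5′ to 3′ on the strand of the gene, with capitals for matches to the searched motifs on either strand. PLAUR is on the plus strand, chr1:89181113-89181362, and PLAU on the minus strand, chr15:3511988-3512237.
PLAUR: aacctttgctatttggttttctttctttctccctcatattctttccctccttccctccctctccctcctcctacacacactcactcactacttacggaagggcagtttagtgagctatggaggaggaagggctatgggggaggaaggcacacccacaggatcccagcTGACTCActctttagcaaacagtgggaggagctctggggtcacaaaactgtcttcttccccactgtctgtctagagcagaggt
PLAU: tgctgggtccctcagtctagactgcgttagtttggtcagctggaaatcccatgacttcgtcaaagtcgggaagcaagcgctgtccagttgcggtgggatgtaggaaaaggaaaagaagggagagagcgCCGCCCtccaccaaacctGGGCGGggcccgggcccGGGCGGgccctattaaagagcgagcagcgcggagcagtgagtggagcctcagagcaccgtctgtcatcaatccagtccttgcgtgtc
The motifs were AP-1 (TGACTCA or TGAGTCA), the GC box (GGGCGG or CCGCCC) and the TATA box (TATAAA or TTTATA). PLAUR has 1 AP-1 match, TGACTCA, 83 to 77 bases before the start, F5 and F2R, which have no value here, have 1 each (TGAGTCA), and PLAU has 3 GC box matches, the nearest 87 to 82 bases before it. Of 33469 windows of this length in the table, 4.05% hold an AP-1 match, 30.5% a GC box and 12.9% a TATA box. These letters are a description of the window, and nothing in these data measures binding. The PLAU window, with 60.0% G and C, is richer in them than that of PLAUR, with 51.2%. SERPINE2 has 6 GC box matches, a pair of them overlapping, in a window of 76.8% G and C.

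The second activator, PLAT, was nearly level. It had 32.6 FPKM in No-SCI and 30.9 FPKM in SCI, a log2 ratio of −0.08 whose sign flipped when the median of all symbols was centred at 0 (0.040) or the upper quartiles were made equal (0.026). By FPKM as deposited PLAT was 8.22 times as abundant as PLAU in No-SCI and 13.7 times in SCI, which rests on the same low PLAU value. Plasminogen (PLG), which the liver makes, has no entry. Among the surface proteins that bind plasminogen or its activators, ANXA2 had the largest ratio of all the pathway genes in the table, from 138 to 660 FPKM (log2 ratio 2.26). Its partner S100A10, with which it forms a receptor for plasminogen and tissue-type activator, went from 2386 to 3851 FPKM (log2 ratio 0.69). PLGRKT, a membrane receptor for plasminogen, was 51.9 and 62.9 FPKM. ENO1, a glycolytic enzyme that also binds plasminogen at the cell surface, was 3846 and 3608 FPKM, with a log2 ratio of −0.09 that turned positive under the same 2 scalings as PLAT. LRP1, the endocytic receptor that clears complexes of activators with their inhibitors, was 4.96 and 4.28 FPKM. Of the 8 genes of this group in the table, ANXA2 and PLAUR were at least 2-fold higher and 0 lower. That is 25.0% in either direction, near the 20.0% of all symbols, of which 7.93% were higher.

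Among the inhibitors of fibrinolysis, 4 of 7 genes in the list were in the table, A2M at least 2-fold higher and SERPINI1 at least 2-fold lower. That is 25.0% of the 4 in each direction, against 7.93% of all symbols higher and 12.1% lower. SERPINI1, neuroserpin, which inhibits tissue-type activator in neurons, had 4.80 and 1.66 FPKM (log2 ratio −1.54) and was the only pathway gene in the table at least 2-fold lower. A2M, a broad protease inhibitor of plasma, went from 24.3 to 51.4 FPKM (log2 ratio 1.08), and VTN, an adhesive glycoprotein of plasma and matrix, was 3.96 and 3.98 FPKM. By FPKM as deposited PLAT exceeded SERPINI1 6.80-fold in No-SCI and 18.7-fold in SCI. The SCI value of SERPINI1, at percentile 3.31 of all symbols, lies close to the lowest value of 1. Its log2 ratio was −1.13 with a pseudocount of 1 and −2.54 with 1 subtracted from every value. The 18.7-fold was not recomputed under these alternatives and depends on what the lowest value stands for.

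Over the 6 pathway lists together, 30 of 58 genes were in the table, 6 of them at least 2-fold higher (F3, F13A1, THBD, PLAUR, ANXA2 and A2M) and 1 lower (SERPINI1). The higher genes are 20.0% of the 30, against 7.93% of all symbols, and the lower gene 3.33%, against 12.1%. In either direction it was 23.3% of the 30, against 20.0% of all symbols. Without the 7 members, 3 of 23 genes were higher and 1 was lower, 17.4% in either direction, with a median log2 ratio of 0.28. The 58 genes include F3, THBD and PLAUR, which were picked with results of this table known, so the share over all 30 is no independent sign of a direction.

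**Figure D2:**
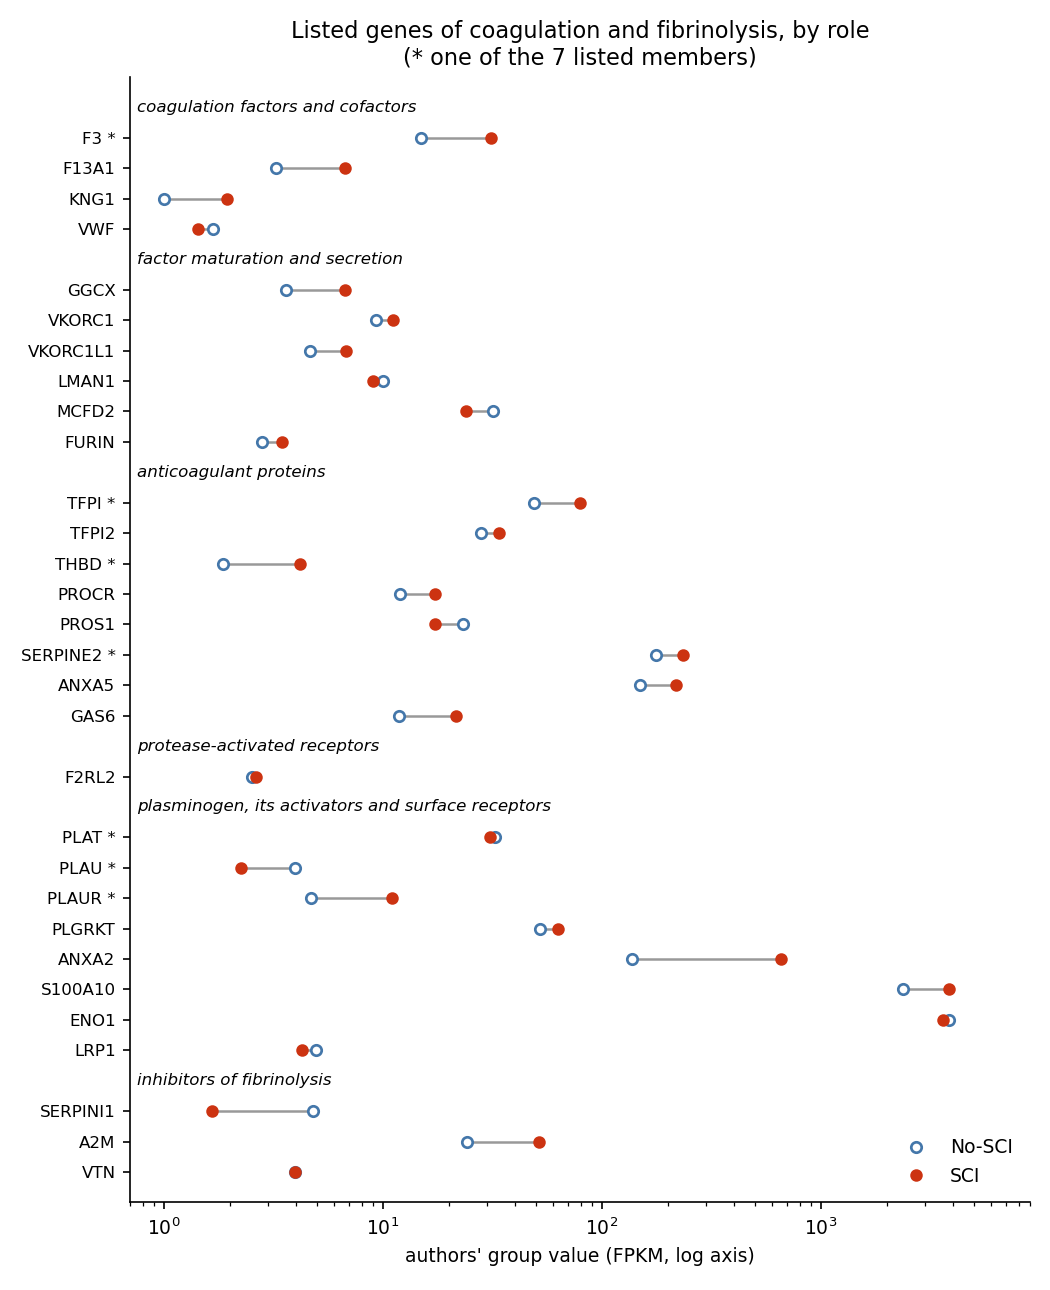
Open circles give the No-SCI and filled circles the SCI group value of each pathway gene in the table (FPKM, log axis), grouped by role, with the 7 members starred and each gene drawn once. ANXA2 shows the widest gap to the right, from 138 to 660 FPKM, and SERPINI1 the widest to the left, from 4.80 to 1.66 FPKM.

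The direction of the members did not depend on how the values were handled, except for PLAT. Over 7 alternatives the log2 ratio of F3 ran from 1.02 to 1.18 and that of PLAUR from 1.07 to 1.43, both above the limit throughout. TFPI ran from 0.69 to 0.82 and SERPINE2 from 0.40 to 0.52, both inside the limit throughout. THBD and PLAU, the 2 members with the lowest mean levels, had the widest ranges over the 6 alternatives that kept them, from 0.86 to 1.89 and from −1.24 to −0.61.

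**Figure D3:**
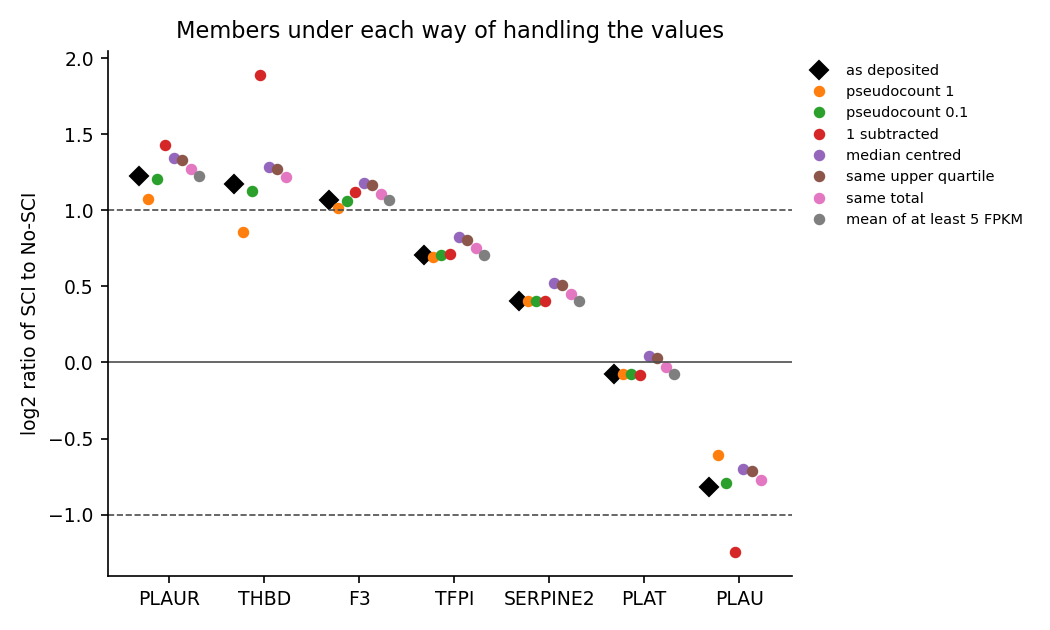
Log2 ratios (SCI over No-SCI, vertical axis) are plotted for each of the 7 members as deposited (black diamond) and under each alternative (coloured points), with dashed lines at the 2-fold limits. PLAUR and F3 stay above the upper line, THBD crosses it with a pseudocount of 1, and PLAU crosses the lower line with 1 subtracted.

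Several members are also genes of particular cells, so marker lists of those cells are set beside them. Counts past 2-fold in these lists stand beside 7.93% of all symbols higher and 12.1% lower. THBD, TFPI, PLAT and PROCR are made by endothelium. Of 16 endothelial markers, 11 were in the table, 4 at least 2-fold higher (CDH5, ERG, EGFL7 and SOX17) and 1 lower (SLCO1A4). Their median log2 ratio was 0.17 and their summed level 85.8 FPKM in No-SCI and 133 FPKM in SCI. PECAM1, TEK and TIE1 have no entry. CDH5, which forms the junctions between endothelial cells, went from 3.85 to 11.7 FPKM, while CLDN5, the tight junction protein of the same cells, was 16.2 and 13.7 FPKM. Mural cell markers had 11 of 12 genes in the table, 0 of them higher and 1 lower (ABCC9), a median log2 ratio of 0.0076 and sums of 455 and 572 FPKM. TAGLN alone made up 383 and 517 FPKM of these sums, and the other 10 genes summed to 71.6 and 54.9 FPKM.

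F3 and PLAUR are also products of monocytes and macrophages, and PLAUR of neutrophils. Markers of astrocytes, in which tissue factor is known too, are given further below. Of 15 monocyte and macrophage markers, 14 were in the table, with 5 at least 2-fold higher (CD14, CD68, CD163, LYZ2 and F13A1) and 1 lower (CSF1R). Their median log2 ratio was 0.41, and their summed level was 4705 FPKM in No-SCI and 4672 FPKM in SCI, most of it from LGALS3, without which the sums were 950.01 and 1419 FPKM, and CD163 and F13A1 fell below 2-fold with a pseudocount of 1. CCR2, the receptor of inflammatory monocytes, has no entry. Of 12 neutrophil markers, 6 were in the table and 3 were higher (S100A8, S100A9 and CXCR2), with a median log2 ratio of 0.67 and sums of 106 and 176 FPKM. LCN2, the most abundant, was 39.4 and 21.8 FPKM, CSF3R was 17.1 and 8.97 FPKM, and without LCN2 the sums were 67.1 and 154 FPKM. CXCR2, at 1.02 and 2.13 FPKM, lies near the lowest value and fell below 2-fold with a pseudocount of 1, and MPO, ELANE and MMP8 have no entry. Platelet markers went the other way, with 7 of 12 in the table, 3 at least 2-fold lower (CLEC1B, PPBP and TUBB1) and 1 higher (GP1BB), and sums of 174 and 53.9 FPKM, of which CLEC1B made up 154 and 41.4 FPKM. With a pseudocount of 1, CLEC1B was the 1 platelet marker still past 2-fold, since GP1BB, PPBP and TUBB1 have low values. ITGA2B, the defining platelet integrin, has no entry. The widest difference of any list was that of meningeal fibroblast markers. Of its 12 genes in the table, 10 were at least 2-fold higher and 0 lower, with a median log2 ratio of 2.03. The sums were 82.4 FPKM in No-SCI and 867 FPKM in SCI. CRABP2 alone made up 17.3 and 382 FPKM of these sums, and the other 11 genes summed to 65.1 and 485 FPKM. The part of the cells of these lists in the values of F3, THBD, PLAUR and ANXA2 was not tested.

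Blood and liver RNA and the cells of the cord itself gave the following values. Of 8 erythroid markers, HBB (490 and 464 FPKM) and AHSP were in the table and 0 passed 2-fold, and of 9 hepatocyte markers APOA1 alone, at 1.82 and 1.11 FPKM. Among markers of the cord 10 of 15 astrocyte, 13 of 15 oligodendrocyte and 12 of 15 neuronal genes were in the table, and their median log2 ratios were −1.36, −1.53 and −0.60. GFAP, AQP4, MBP, SNAP25 and CHAT have no entry although they mark cells of the cord. A missing entry, also of the liver products above, therefore cannot be read as absence of expression. At least 2-fold lower were 8 astrocyte, 8 oligodendrocyte and 4 neuronal genes, and 0 were higher. Beside these, SERPINE2, known from glia, had a log2 ratio of 0.40, and F3, known from astrocytes and vessel walls, 1.06. The part of the cord's own cells in these values was not tested.

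**Figure D4:**
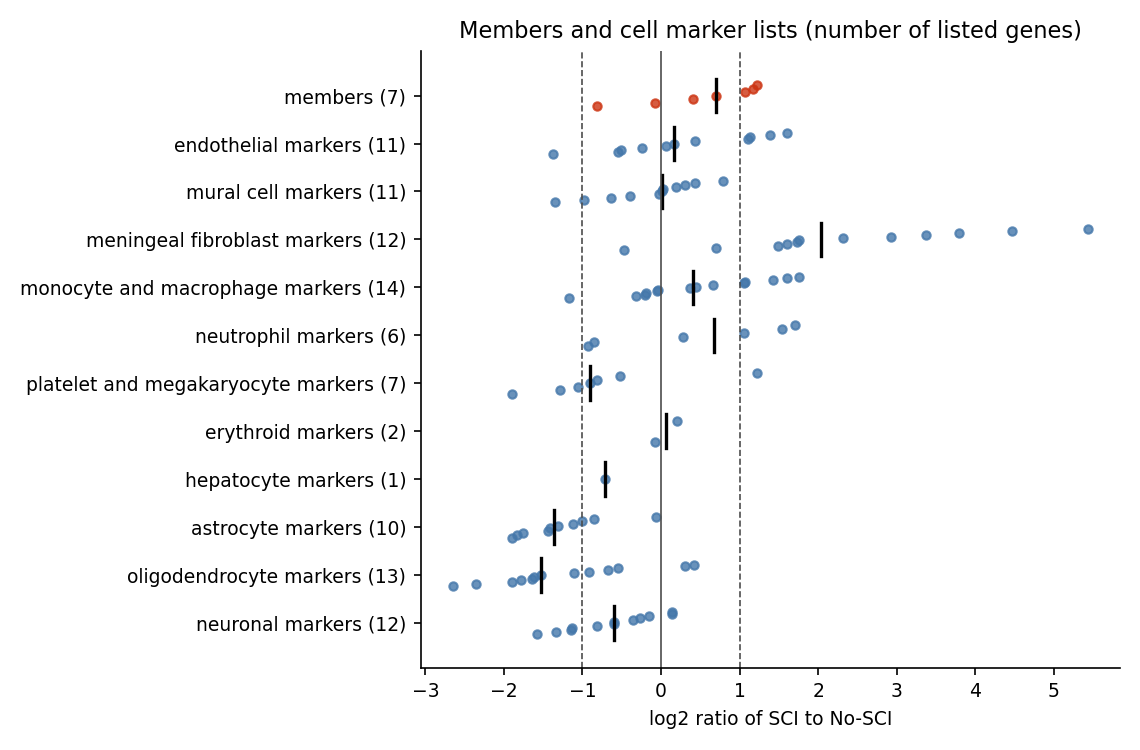
Each point is 1 gene in the table at its log2 ratio (SCI over No-SCI, horizontal axis), for the 7 members (red) and for 11 marker lists (blue, number of genes in brackets), with black bars at the medians and dashed lines at the 2-fold limits. The members' median is 0.70, beside 0.67 for the neutrophil, 0.41 for the monocyte and macrophage, 0.17 for the endothelial and 2.03 for the meningeal fibroblast list. Medians below 0 are −0.91 for the platelet, −0.71 for the hepatocyte, −1.36 for the astrocyte, −1.53 for the oligodendrocyte and −0.60 for the neuronal list. The erythroid median is 0.06 and the mural median 0.0076.

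Genes with nearly the same pair of values as the members past 2-fold were found by distance over both log2 levels. Nearest to F3 were METTL26 (14.6 and 31.2 FPKM), RCSD1 and AP1AR. Nearest to THBD were SIAH2 (1.81 and 4.16 FPKM), GPER1 and HFE, and nearest to PLAUR were VPS13D (4.73 and 10.7 FPKM), CDC73 and USP1. With 2 values per gene such likeness is common: 47, 43 and 49 symbols lay within 0.25 log2 units of F3, THBD and PLAUR.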

How the data were processed

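Strand-specific total RNA libraries were sequenced by the authors, who downsampled the reads to the smallest library and aligned them to rn6. The submitters' processing notes name STAR 2.5.4b and Cuffdiff 1.3.0. The table deposited by the authors gives FPKM as group estimates, 1 for No-SCI and 1 for SCI for each of 12771 entries; the authors' fold, p and q columns hold their own comparison and were not used. The study's methods give a nominal number of reads per sample, but neither the number kept after downsampling nor the fragments behind a value are given. No value lies below 1, and whether this is a floor or an added constant is not given in the sources used here. Whole reads were not recovered from the values. For 13 symbols listed repeatedly the entry with the larger mean was kept. SCI was divided by No-SCI without a pseudocount and put on the log2 scale, and a gene was called at 2-fold. Ratios and calls were tested on simulated data. Some symbols may sum several entries, which limits comparison of levels between genes. For 6 of the 7 members, and 58.6% of all symbols, a value has at least 7 digits. Such a value can come from summing or from an added constant of 1, so this share does not count the summed symbols.

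The members, the 6 pathway lists and the 11 marker lists were chosen with earlier results of these data known, and some of their genes are not reported here. All members and pathway genes could be named, and of each marker list the 3 most abundant genes and those past 2-fold; markers without an entry were named too. For members past 2-fold the 3 genes nearest by distance over both log2 values were named. Alternatives were pseudocounts of 1 and 0.1, 1 subtracted from every value, median centring, equal upper quartiles, equal totals, a mean of at least 5 FPKM, and folds of 1.5 and 3. Python 3.11.15, numpy 2.4.6, pandas 2.3.3 and matplotlib 3.10.9 were used. Symbols were matched to RefSeq (GRCr8) for names and promoter windows; values were made on rn6, so the only coordinates given are those of the GRCr8 promoter windows.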

Additional observations from a re-analysis of the deposited data

How the results depend on the processing

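The number of members past 2-fold was 3 as deposited, 5 at a fold of 1.5 and 0 at a fold of 3. It was 2 with a pseudocount of 1 and with a mean of at least 5 FPKM, and 4 (3 higher, 1 lower) with 1 subtracted. The number of pathway genes past 2-fold was 7 as deposited, 13 at a fold of 1.5 (KNG1 included), 1 at a fold of 3 (ANXA2), and 4 with a mean of at least 5 FPKM, which leaves fewer genes. It was 9 with 1 subtracted, with median centring and with equal upper quartiles, and 5 with a pseudocount of 1. F13A1 fell below the limit with a pseudocount of 1 (0.87), and GGCX passed it with median centring, equal upper quartiles and 1 subtracted. The counts of 9 with median centring and equal upper quartiles include KNG1, whose No-SCI value is the lowest in the table, and are 8 without it. THBD fell below the limit with a pseudocount of 1 (log2 ratio 0.86), and PLAU passed it with 1 subtracted (−1.24). The log2 ratio of PLAT turned to 0.040 with median centring and to 0.026 with equal upper quartiles. The other 43 values of the members' ratios kept their direction and their side of the limit. Centring adds 0.12 to every log2 ratio, equal upper quartiles add 0.10 and equal totals 0.05. For the marker lists, 3 alternatives were added after seeing the data. With a pseudocount of 1 the platelet list went from 4 genes past 2-fold to 1, and with 1 subtracted the mural list went from 1 to 3 and the hepatocyte list from 0 to 1. The other counts, with median centring too, stayed within 1.5 times. No paired analysis was possible because the table holds 1 value per group and the libraries share no replicate number, and for the same reason no library could be left out. The number of fragments behind the low values of THBD and PLAU is not given.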
